A study of Mus musculus with 2 samples.

Results

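The genes of retinoic acid synthesis, binding and breakdown were measured by total RNA-seq in the urinary bladder of newborn mice. They are 9 genes chosen by name, Stra6, Rdh10, Dhrs3, Aldh1a1, Aldh1a2, Aldh1a3, Crabp1, Crabp2 and Cyp26b1, out of 43346 mouse genes in the gene tables, and each matched 1 row by its identifier. The samples were bladders of 2 pups of the strain B6NCrl at postnatal day 0, littermates carried by 1 dam. Each pup gave 1 library, from an input of 10 ng of RNA longer than 200 nt. Both belong to a single group for which the labels name no treatment, so no condition, age or tissue was contrasted, and the data give the level of each gene and the difference between littermates. With 1 library per pup there are 0 residual degrees of freedom and no p-value was computed.

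Retinoic acid is made from vitamin A in steps. Retinol circulates bound to retinol-binding protein, enters some cells through the receptor Stra6, and is oxidised to retinal by enzymes such as Rdh10, while Dhrs3 reduces retinal back to retinol. The retinaldehyde dehydrogenases Aldh1a1, Aldh1a2 and Aldh1a3 oxidise retinal irreversibly to retinoic acid, the Crabp proteins bind it in the cytoplasm, nuclear receptors of the Rar and Rxr families respond to it, and Cyp26 enzymes hydroxylate it for removal. In the bladder vitamin A is known for keeping the urothelium, the lining epithelium, from turning squamous, and retinoic acid signalling is known to take part in forming the urothelium in the embryo.

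Pup 1 was sequenced to 43653931 expected counts and pup 2 to 32564563. An expected count is the estimated number of reads of a gene, and TPM is the level per transcript length, scaled to the same sum in each library, and is the scale on which genes are compared here. The labelled tissue carried its defining markers. The 4 superficial urothelium markers summed to 5881 TPM in pup 1 and 5627 TPM in pup 2 and the 4 smooth muscle markers to 48981 and 44657 TPM, while all 3 kidney markers had 0 counts in both pups. Every marker of basal urothelium (3), fibroblast (4), mesothelium (3), endothelium (3), macrophage (5), erythroid cells (5) and neurons and glia (5) was at 1 TPM or more in both pups. So were 4 of 5 liver, 4 of 5 skeletal muscle, 4 of 5 squamous epithelium and 1 of 3 gut epithelium markers. The lists that differed most between the pups were these: macrophage markers summed to 357 TPM in pup 1 and 1462 in pup 2, erythroid markers to 21719 and 59101, liver markers to 66.5 and 14.7, and skeletal muscle markers to 1352 and 1046. The skeletal muscle sum was mostly Tnnt3, at 667 and 429 TPM, and Ckm, at 656 and 600 TPM. In whole tissue, fewer cells of a type and less RNA per cell cannot be told apart.

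Of the 9 genes, 6 were detected, meaning 1 TPM or more in both pups: Dhrs3, Aldh1a2, Aldh1a1, Rdh10, Aldh1a3 and Crabp2. For comparison, 31.9% of all mouse genes and 58.5% of protein-coding genes passed the same threshold. The 3 below it were Cyp26b1, Crabp1 and Stra6. The 9 genes summed to 221 TPM in pup 1 and 231 TPM in pup 2, and the retinal reductase Dhrs3 alone made up 70.3% and 69.7% of that. Their median mean level was 3.73 TPM, against 3.36 TPM over all 21474 protein-coding genes.

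**Figure D1:**
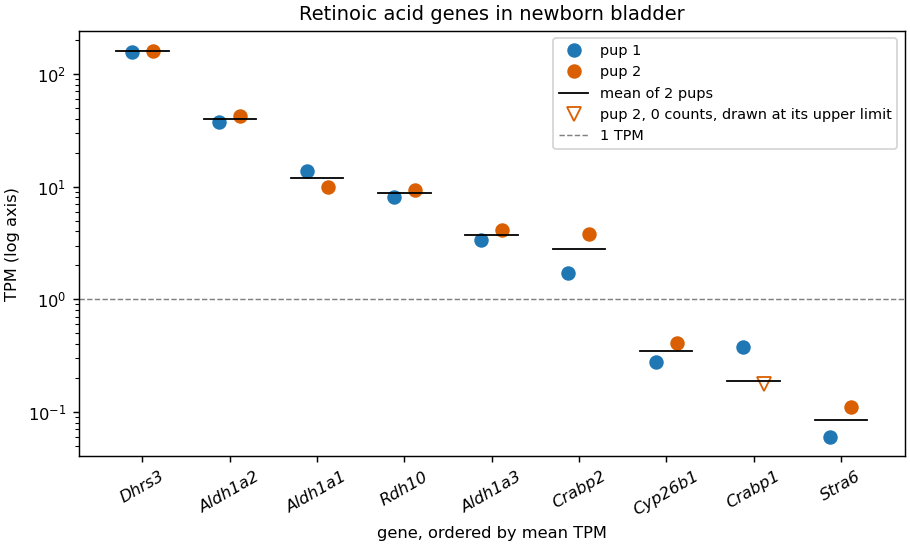
TPM of each gene (log axis) in pup 1 and pup 2, as 1 point per library, with the mean of 2 pups as a bar and 1 TPM as a dashed line. Dhrs3 is highest at 155 and 161 TPM, and Cyp26b1, Crabp1 and Stra6 lie below 1 TPM in both pups. The open triangle stands for 0 counts of Crabp1 and is drawn at the 0.178 TPM that 3 counts would give.

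Promoter sequence was given for 6 of the 9 genes in RefSeq (build GRCm38.p6, the same assembly as mm10), in 12 windows. Aldh1a3, Rdh10 and Crabp2 were not matched. The 250 bases before the annotated start are shown for the pair with the highest mean level among these 6, Dhrs3 and Aldh1a2, and for a pair below 1 TPM, Cyp26b1 and Crabp1. Capitals mark the CCAAT box, the TATAAA box, the GC box GGGCGG and the receptor half-site AGGTCA, each searched on both strands.
Dhrs3, chr4:144892577-144892826, plus strand: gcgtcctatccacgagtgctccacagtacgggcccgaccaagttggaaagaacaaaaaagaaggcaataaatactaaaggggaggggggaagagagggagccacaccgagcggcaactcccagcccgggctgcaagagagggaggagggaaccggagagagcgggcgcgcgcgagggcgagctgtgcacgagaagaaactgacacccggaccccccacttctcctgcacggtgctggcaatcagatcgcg
Aldh1a2, chr9:71215539-71215788, plus strand: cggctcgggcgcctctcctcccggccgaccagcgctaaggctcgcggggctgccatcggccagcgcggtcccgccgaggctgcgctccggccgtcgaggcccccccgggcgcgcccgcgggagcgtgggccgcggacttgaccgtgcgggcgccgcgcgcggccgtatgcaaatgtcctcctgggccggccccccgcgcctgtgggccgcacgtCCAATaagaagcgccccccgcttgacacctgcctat
Cyp26b1, chr6:84593811-84594060, minus strand: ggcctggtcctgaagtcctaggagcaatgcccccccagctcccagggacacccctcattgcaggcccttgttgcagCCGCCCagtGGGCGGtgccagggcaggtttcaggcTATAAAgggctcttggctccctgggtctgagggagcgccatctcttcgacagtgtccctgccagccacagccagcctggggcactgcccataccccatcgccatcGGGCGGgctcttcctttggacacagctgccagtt
Crabp1, chr9:54764498-54764747, plus strand: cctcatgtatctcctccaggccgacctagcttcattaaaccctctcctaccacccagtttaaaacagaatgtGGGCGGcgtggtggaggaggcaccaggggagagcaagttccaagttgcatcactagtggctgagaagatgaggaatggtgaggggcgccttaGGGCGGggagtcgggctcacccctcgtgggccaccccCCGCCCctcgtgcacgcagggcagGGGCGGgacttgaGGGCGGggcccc
The Dhrs3 window ends just before the first of its annotated starts, at position 144892827. The RefSeq start of Cyp26b1, position 84593810, lies between the starts of its 2 transcripts in the files. Aldh1a2 held CCAAT at position -36 from its start, which 33.8% of all 32851 windows hold. Cyp26b1 held TATAAA at -139, which 12.4% hold. GGGCGG, present in 32.7% of all windows, occurred 3 times in Cyp26b1 and 5 times in Crabp1, and none of these motifs was in the Dhrs3 window printed. RefSeq gives Dhrs3 another 2 windows, before the downstream starts at positions 144893077 and 144893137, which hold CCAAT on the opposite strand 2 times and 1 time. They overlap each other and begin at or after the upstream start.

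The windows differed in CpG content. Among the windows printed, the ratio of observed to expected CpG was 1.07 for Aldh1a2 and 0.812 for Dhrs3, and 0.477 for Crabp1 and 0.269 for Cyp26b1, with a median of 0.374 over all windows. GC content was 77.6%, 61.6%, 63.6% and 64.8% in the same order, with a median of 52.4%. The other 2 Dhrs3 windows had ratios of 0.617 and 0.573 and GC contents of 46.8% and 44.8%, both below that median. Of the windows not printed, those of Aldh1a1 had ratios of 0.263 and 0.0743, and those of Stra6 ran from 0.135 to 0.401. Aldh1a1, a detected gene, thus lay below both printed genes under 1 TPM, and the 4 printed windows do not show that CpG content follows level. Half-sites of retinoic acid receptors were searched on both strands as AGGTCA, as the variant AGTTCA, as the variant GGGTCA and as the variant GGTTCA. In the 12 windows of the 6 genes the only match was GGGTCA on the opposite strand, at -49 of the Aldh1a1 window that ends at position 20601967. Of all windows 38.6% hold at least 1 half-site and 14.0% hold AGGTCA, which is among these half-sites. Direct repeats of them spaced by 1, 2 or 5 bases occurred in none of the 12 windows and in 0.164%, 0.174% and 0.0883% of all windows. A missing match says only that these letters are not in these 250 bases.

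The retinol receptor Stra6, on chr9:58063788-58153996 (mm10, plus strand, ENSMUSG00000032327.10), was close to absent at this depth. It had 5 counts and 0.06 TPM in pup 1 and 7 counts and 0.11 TPM in pup 2. For this gene 3 counts, the upper limit set here for a count of 0, correspond to 0.0382 TPM in pup 1 and 0.0452 TPM in pup 2. Both libraries were thus above that limit by few reads. The deposited posterior mean of TPM, which gives each of its 14 annotated transcripts a small amount, was 0.75 and 0.96, so the level of Stra6 depended on the estimate used. All reads of pup 1 were assigned to Stra6-202 and all reads of pup 2 to Stra6-213. These transcripts start at positions 58129088 and 58134665 and code for 670 codons each. Its span overlaps Ccdc33, on the other strand, which had 1 and 2 counts. With 5 and 7 counts no preference for a start can be read from this.

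Between retinol and retinal, the reductase Dhrs3 was more abundant than the dehydrogenase Rdh10. Other enzymes that can oxidise retinol are given with the pathway list, and one of them, Adh1, was above Dhrs3. Rdh10, on chr1:16105774-16133734 (plus strand, ENSMUSG00000025921.7), is the retinol dehydrogenase known to be needed for embryonic retinoic acid. It had 8.12 TPM in pup 1 and 9.37 TPM in pup 2 (8.74 ± 0.884, SD, n = 2), on 826 and 774 counts. Dhrs3, on chr4:144892827-144928209 (plus strand, ENSMUSG00000066026.10), which reduces retinal to retinol, had 155 TPM and 161 TPM (158 ± 4.08, SD, n = 2), on 7355 and 6148 counts. The level of Dhrs3 was 19.1 times that of Rdh10 in pup 1 and 17.2 times in pup 2. Dhrs3 ranked 834 of 21474 protein-coding genes by mean TPM, above 96.1% of them, whereas Rdh10 was above 63.0%.

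All 3 retinaldehyde dehydrogenases were detected, in the same order in both pups. Aldh1a2, on chr9:71215789-71296243 (plus strand, ENSMUSG00000013584.5), the main enzyme of embryonic mesoderm, had 37.7 TPM in pup 1 and 42.2 TPM in pup 2 (40.0 ± 3.24, SD, n = 2). Aldh1a1, on chr19:20492715-20643465 (plus strand, ENSMUSG00000053279.6), had 13.8 TPM and 9.95 TPM (11.9 ± 2.73). Aldh1a3, on chr7:66390890-66427517 (minus strand, ENSMUSG00000015134.10), had 3.39 TPM and 4.08 TPM (3.73 ± 0.488). The ranges of the 3 enzymes did not overlap. Their sum was nearly equal in the pups, at 54.9 and 56.3 TPM, but its makeup differed. The ratios between pups are given below, beside the spread of all genes. Aldh1a2 made up 68.7% in pup 1 and 75.1% in pup 2, Aldh1a1 25.2% and 17.7%, and Aldh1a3 6.18% and 7.25%. Per transcript length, Aldh1a2 was thus 2.73 times Aldh1a1 in pup 1 and 4.25 times in pup 2.

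Reads of the 3 enzymes can be told apart by sequence, apart from a close copy of Aldh1a1. Over aligned coding bases Aldh1a1 was 68.8% identical to Aldh1a2 and 67.4% to Aldh1a3, and Aldh1a2 was 68.9% identical to Aldh1a3, with no identical run above 26 bases. Aldh1a7, a rodent duplicate of Aldh1a1 on chr19:20692953-20727562 (minus strand), was 91.6% identical to it over 1503 coding bases. It was looked up for this likeness after other values had been seen. Its level, at 34.2 TPM in pup 1 and 30.7 TPM in pup 2, was above that of Aldh1a1 in both. Of 1954 windows of 100 nt in the Aldh1a1 transcript, the length that the files' effective lengths imply for a read, exactly 1 also occurred in Aldh1a7. That stretch, coding bases 757 to 856, is shown because it is where an exact read could not be assigned between them, in lower case throughout.
Aldh1a1 and Aldh1a7, shared: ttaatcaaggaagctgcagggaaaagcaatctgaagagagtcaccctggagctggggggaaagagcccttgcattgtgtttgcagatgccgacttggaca
The deposited posterior SD of the Aldh1a1 count was 0.71 reads in pup 1 and 0.46 reads in pup 2, on 808 and 465 counts. The other 8 genes had a posterior SD of 0. Of these, only Aldh1a3 shared a window with another gene, 1 of 4601, with Casc4.

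Of the cellular retinoic acid-binding proteins, Crabp2 was detected and Crabp1 was near the limit. Crabp2, on chr3:87948666-87953376 (plus strand, ENSMUSG00000004885.5), which carries retinoic acid to its receptors in the nucleus, had 41 counts and 1.71 TPM in pup 1 and 74 counts and 3.82 TPM in pup 2. Crabp1, on chr9:54764748-54773110 (plus strand, ENSMUSG00000032291.8), which holds retinoic acid in the cytoplasm, had 8 counts and 0.38 TPM in pup 1. In pup 2 it had 0 counts, for which the limit of 3 counts set here gives 0.178 TPM. With that count set to 3, its level was 2.02-fold higher in pup 1. This leaves out the counting error of the 8 reads, and the 95% counting interval of the log2 ratio of pup 2 over pup 1 came as near to equal levels as -0.37. The level of Crabp2 was 4.5 times that of Crabp1 in pup 1. The coding sequences of the pair, 411 and 414 bases, were 70.8% identical with no identical run above 11 bases, and neither shared a window of 100 nt with any other gene.

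The breakdown enzyme Cyp26b1, on chr6:84571414-84593908 (minus strand, ENSMUSG00000063415.8), was low in both pups. It had 38 counts and 0.28 TPM in pup 1 and 45 counts and 0.41 TPM in pup 2 (0.345 ± 0.0919, SD, n = 2). Its relatives Cyp26a1 and Cyp26c1, which hydroxylate retinoic acid as well, were lower. Cyp26a1 had 6 and 8 counts, or 0.12 and 0.2 TPM. Cyp26c1 had 0 and 2 counts, where the limit set for 0 counts gives 0.0608 TPM. The 3 enzymes together had 44 counts and 0.4 TPM in pup 1 and 55 counts and 0.66 TPM in pup 2. Against that sum, the transcripts of the 3 retinaldehyde dehydrogenases were 137 times as abundant in pup 1 and 85.3 times in pup 2. This is a ratio of transcript levels and not of enzyme activity. Its lower term rests on 44 and 55 counts and no counting error was computed for it, so 137 and 85.3 are not shown to differ. Cyp2s1, also in the breakdown list, at 9.2 and 10.2 TPM, is not in that sum and would make the ratio far smaller.

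By mean TPM the order was Dhrs3, Aldh1a2, Aldh1a1, Rdh10, Aldh1a3, Crabp2, Cyp26b1, Crabp1 and Stra6. The order held within each pup at 6 of 8 steps, and ranges over the 2 pups were apart at 5 of 8. The ranges over the 2 pups overlapped between Aldh1a3 and Crabp2, between Cyp26b1 and Crabp1 and between Crabp1 and Stra6. Accordingly, with pup 1 alone Cyp26b1 and Crabp1 changed places, and with pup 2 alone Crabp1 and Stra6 did.

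The other genes of the pathway were taken from a list. This list of 59 further genes was matched for 58, Rbp5 being the exception, and 36 of the 58 were detected, beside 58.5% of all protein-coding genes. The median level over the 58 was 6.22 TPM. Among uptake and storage genes 5 of 10 were detected, among them Rbp4, the circulating retinol carrier, at 67.5 and 69.9 TPM. Lrat, which esterifies retinol for storage, had 0.06 and 0.12 TPM. None of the 2 carotenoid cleavage genes was detected, with Bco1 at 0.87 and 0.85 TPM and Bco2 at 0.26 and 0.12 TPM. Among retinol and retinal oxidoreductases 11 of 17 were detected. The highest were Adh1, the class I alcohol dehydrogenase, which accepts retinol among other alcohols, at 666 and 593 TPM, and aldose reductase, Akr1b3, at 193 and 209 TPM. Both were above Dhrs3 and Rdh10. Rdh16, Sdr16c5 and Adh4 had 0 counts in both pups.

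Downstream of synthesis, receptors were present at moderate level. Of 6 receptor genes 5 were detected: Rarg at 24.8 and 22.8 TPM, Rxrb at 19.4 and 21.6 TPM, Rara at 16.0 and 14.8 TPM, Rxra at 8.81 and 7.46 TPM and Rarb at 6.31 and 5.67 TPM. Rxrg had 0.16 and 0.29 TPM. Fabp5, a fatty acid-binding protein that can carry retinoic acid, was at 207 and 173 TPM, far above Crabp2. Apart from the Cyp26 genes, the breakdown list held the cytochrome P450 Cyp2s1 at 9.2 and 10.2 TPM. Of 3 other enzymes that can act on retinal 2 were detected, Cyp1b1 at 5.93 and 6.98 TPM and aldehyde oxidase Aox1 at 1.29 and 1.27 TPM. All 6 receptor cofactors were detected, led by the corepressor Ncor1 at 92.1 and 79.3 TPM and Nrip1 at 14.2 TPM in each pup.

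Genes known to respond to retinoic acid in other settings did not stand at one level. Of 13 such genes 7 were detected. Rarres2, which encodes chemerin, was at 887 and 771 TPM, Dhrs3 itself belongs to this list, and Rarb is named above. Tgm2, tissue transglutaminase, was at 89.6 and 190 TPM. At the other end Cyp26a1 was at 0.12 and 0.2 TPM, and Stra8, known from germ cells entering meiosis, and Cdx1, a homeobox gene, had 0 counts in both pups.

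**Figure D2:**
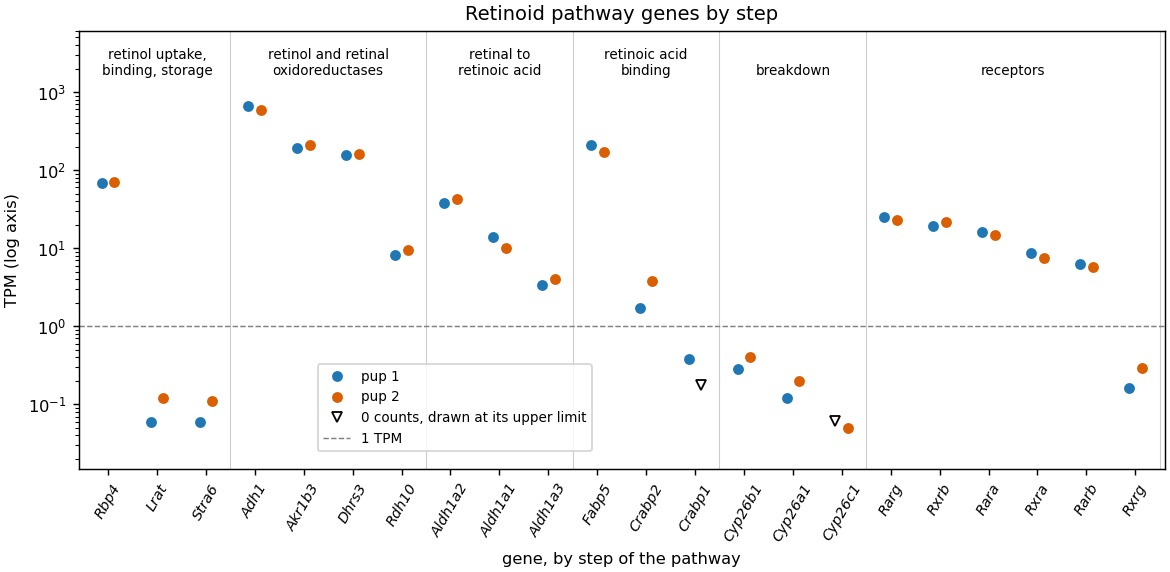
TPM (log axis) of pathway genes grouped by step, as 1 point per pup, with 1 TPM as a dashed line and open triangles for 0 counts drawn at their upper limit. The synthesis enzymes lie between 3.39 and 42.2 TPM, all 3 Cyp26 genes lie below 0.5 TPM, and 5 of 6 receptors lie between 5.67 and 24.8 TPM.

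Between littermates, 7 of the 9 genes had the mean count of at least 20 that was required for a ratio, and 6 of these 7 were higher in pup 2. Over all 15605 genes with that count, 47.4% were higher in pup 2. Expected counts were scaled with TMM factors, and values below are log2 ratios of pup 2 over pup 1 with 95% intervals for counting error only. The median ratio of the 7 genes was 0.31, against -0.01 over all genes. Intervals of 6 of the 7 excluded equal levels, as did those of 47.3% of all genes. This describes these 2 libraries, and animal, dissection and library cannot be told apart.

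Crabp2 differed most. It was 2.39-fold higher in pup 2, a log2 ratio of 1.26 (interval 0.69 to 1.84), and was the only 1 of the 7 genes to be 2-fold apart. Of all genes with at least 20 counts 3.71% were 2-fold apart and 2.85% were 2-fold higher in pup 2. Of genes with 100 counts or more 1.98% were 2-fold apart, and none of the 5 described here that reach this depth was. Among genes of the depth of Crabp2, 20 to 100 counts, 11.4% were 2-fold apart and 7.94% were 2-fold higher. With 1 added to TPM its log2 ratio was 0.83, which is below 2-fold. Macrophage markers (median log2 ratio 1.57, 5 of 5 higher) and erythroid markers (1.57, 5 of 5 higher) moved the same way as Crabp2, no defining marker of either list was at 0, and their part in the result was not tested. The basal urothelium markers had a median of 0.14 and the fibroblast markers -0.09.

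Aldh1a1 was the only 1 of the 7 genes lower in pup 2. Its counts of 808 and 465 gave a log2 ratio of -0.39 (interval -0.56 to -0.23), or 1.31-fold higher in pup 1, and its close copy Aldh1a7 had -0.08. The other synthesis enzymes went the opposite way, Aldh1a2 at 0.25 (interval 0.16 to 0.33) and Aldh1a3 at 0.36 (0.10 to 0.62). Liver markers, with a median of -2.03 and 0 of 5 higher, and skeletal muscle markers, with -0.41 and 0 of 4 higher, were lower in pup 2 as well. So were smooth muscle markers, by less, with -0.13 and 0 of 4 higher. The skeletal muscle markers were uneven, with Myh8 at -0.66, Tnnt3 at -0.54, Mylpf at -0.27 and Ckm at -0.05. The interval of Mylpf, -1.06 to 0.48, included equal levels. No liver, skeletal muscle or smooth muscle marker was at 0 in both pups. Their part in the difference of Aldh1a1 was not tested.

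Of the rest, Rdh10 had a log2 ratio of 0.31 (interval 0.17 to 0.45) and Dhrs3 one of 0.15 (0.10 to 0.19), which is 1.11-fold. Cyp26b1 had 0.65, a larger ratio than these, but on 38 and 45 counts its interval ran from -0.01 to 1.31 and included equal levels. Stra6 and Crabp1 were below the count required. Of the 9 genes Dhrs3 and Aldh1a2 had the smallest spread relative to their level, with an SD of 2.58% and 8.10% of the mean, against 54.0% for Crabp2 and 23.0% for Aldh1a1.

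**Figure D3:**
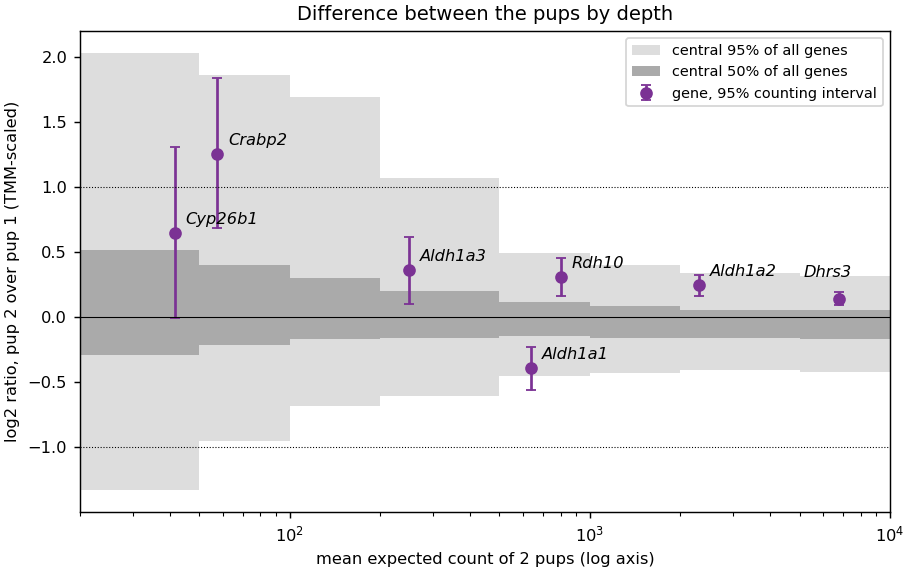
Log2 ratio of pup 2 over pup 1 against mean expected count (log axis) for the 7 genes with at least 20 counts, with 95% counting intervals, over grey bands that hold the central 50% and 95% of all genes in 8 ranges of depth. Dotted lines mark 2-fold. Crabp2, at 1.26, lies above the 2-fold line but within the wide band at its depth. Aldh1a1 is the only 1 of the 7 below 0, and it too lies within the wide band at its depth.

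The other pathway genes went both ways. Of 40 with at least 20 counts 24 were higher and 16 lower in pup 2, with a median log2 ratio of 0.05. Over all genes with that count 47.4% were higher in pup 2. Tgm2 was the only 1 of the 40 to be 2-fold apart, at 2.23-fold higher in pup 2 (log2 ratio 1.16, interval 1.12 to 1.20) on 9346 and 15769 counts. Of all genes with at least 20 counts 3.71% were 2-fold apart, and of those with 1000 counts or more 0.859% were. Macrophage markers (median log2 ratio 1.57) and erythroid markers (1.57) moved the same way as Tgm2. Their part in its difference was not tested. The receptors were close, with Rara at 0.02, Rarg at 0.03, Rarb at -0.07, Rxra at -0.18 and Rxrb at 0.19. Rbp4 had 0.13 and Adh1 had -0.09.

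The genes differed in how many transcripts carried their reads. Aldh1a1, Aldh1a2 and Crabp1 had a single annotated transcript each in the files. Rdh10 was almost entirely the coding Rdh10-201, at 94.6% of its TPM in pup 1 and 97.9% in pup 2, and Crabp2 was mainly Crabp2-201, at 88.6% and 91.9%, with the rest in retained-intron transcripts. Aldh1a3 was divided between Aldh1a3-201, with 512 codons, at 56.3% and 57.7%, and the shorter Aldh1a3-203, with 176 codons, at 43.7% and 42.3%. By expected counts, which are not divided by length, Aldh1a3-203 took only 62.0 of 253 reads and 57.8 of 246. The deposited posterior mean gave Aldh1a3-201 50.3% and 51.8% and Aldh1a3-203 38.1% and 37.25%. Cyp26b1 reads were all assigned to Cyp26b1-202 in both pups. The deposited posterior mean gave that transcript only 55.6% and 57.8%, so Cyp26b1-201 and Cyp26b1-202, which differ in their first exon and code for 512 codons each, were not separated by 38 and 45 counts.

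Dhrs3 was the only 1 of the 7 genes with at least 20 counts whose leading transcript by TPM differed between the pups. Of 7 annotated transcripts 4 reached 10% in at least 1 pup. Dhrs3-206, with 302 codons, took 33.0% in pup 1 and 32.4% in pup 2, Dhrs3-207, with 276 codons, took 31.3% and 39.1%, Dhrs3-201, annotated as a target of nonsense-mediated decay, took 21.7% and 19.3%, and Dhrs3-205 took 10.0% and 5.07%. In pup 1 the leading pair were close, with posterior SDs of 152 of 3435 reads for Dhrs3-206 and 89.6 of 1820 for Dhrs3-207. By expected counts, which are not divided by length, Dhrs3-206 led in both pups, with 2792 reads against 1880 in pup 2. Protein-coding transcripts together took 74.9% and 76.8% of the gene. Dhrs3-207 and the minor Dhrs3-202 begin at position 144892827, just after the Dhrs3 window printed above, and 4 others begin between 144893077 and 144893219. The upstream start carried 31.9% of the gene in pup 1 and 39.3% in pup 2, or 49.5 and 63.2 TPM, and the downstream starts 65.5% and 58.1%, or 102 and 93.5 TPM. The posterior SD for Dhrs3-207 in pup 2 was 84.6 of 1880 reads. A posterior SD covers the assignment of reads only.

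**Figure D4:**
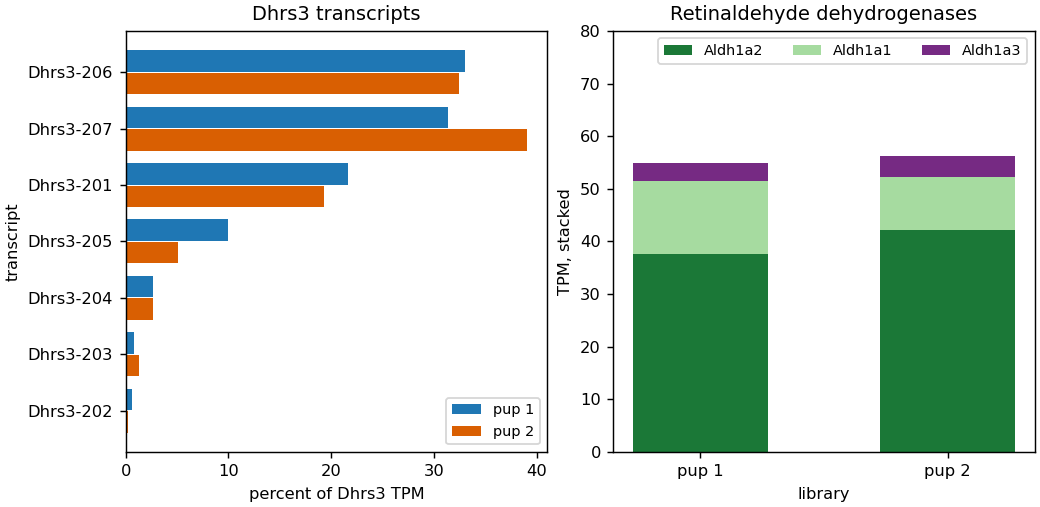
Left, percent of Dhrs3 TPM in each of its 7 annotated transcripts, with 1 bar per pup. Right, TPM of the 3 retinaldehyde dehydrogenases stacked for each pup. Dhrs3-207 takes 31.3% in pup 1 and 39.1% in pup 2, and the stacks are nearly equal in height at 54.9 and 56.3 TPM while the Aldh1a1 part is smaller in pup 2.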

How the data were processed

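Total RNA-seq of 2 newborn bladders was analysed as 1 group, with pup numbers from the labels. Per the file headers and the deposited text listing, the authors used the RSEM layout on mm10 with GENCODE M4. Which aligner, RSEM release and strand mode were used is not given in the sources used here. Expected counts, as deposited, are estimated reads per gene, unscaled, with reads of several genes divided. The deposited TPM is scaled over all entries, FPKM as deposited is per length and depth, and the deposited percent gives each transcript's part of its gene. Effective lengths below transcript lengths raise the TPM of short genes, and with strand mode unknown, overlapping genes cannot be separated. Of 43346 mouse genes, 42462 took names and biotypes from GENCODE M21. Spike-in and numeric entries, 0.000906% and 0.000943% of counts, stayed out of scaling.

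TMM factors (edgeR 4.0.16, R 4.3.3) were computed from rounded counts. Ratios used unrounded expected counts scaled with these factors, and there a count of 0 was set to 3. Intervals are exact binomial (Clopper-Pearson) at 95%, on rounded counts. Both they and the limits from 0 counts reflect counting error alone, with each read taken as independent. Duplicates from PCR are unmarked, so the counting error itself may be larger than they show. With no residual degrees of freedom no test between animals was run. The step that computes ratios was checked beforehand on simulated counts with known folds. Alternatives were the size factors of DESeq2 1.42.0, total counts, posterior means, TPM with 0.1 or 1 added, other thresholds and each pup alone. Coding sequences of GENCODE M21 were aligned globally (Biopython 1.88, Python 3.11.15).

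Members, lists and settings were chosen with earlier results of these data known. Pathway genes named are the receptors, Cyp26a1, Cyp26c1, Lrat, Rbp4, the 2 highest of each role, those 2-fold apart on at least 20 counts, and those at 0 counts in both pups. A gene that this rule names is not reported here. Aldh1a7, Casc4 and Ccdc33 were added after values were seen. Spike-in spread is left out, because only 4 of 96 ERCC entries reached 20 counts.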

Additional observations from a re-analysis of the deposited data

How the results depend on the processing

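The number of genes detected was 6 under 0.5 TPM, FPKM, posterior mean TPM, rescaled TPM and in each pup alone, and 4 at 5 TPM. The order of levels was the same without retained-intron and nonsense-mediated-decay transcripts. It differed in the place of 4 genes by expected counts not divided by length, 3 genes by posterior mean TPM, and 2 genes with either pup left out. Under 6 other scalings each of the 7 genes with at least 20 counts kept its direction (42 of 42 values). The number of genes 2-fold apart, 1, became 0 with 1 added to TPM, 0 at a mean count of at least 100, 2 with no filter, where Crabp1 joins through its count of 0 set to 3, and 2 at 1.5-fold, where Cyp26b1 joins. The median log2 ratio of 0.31 ranged from 0.16 with 1 added to TPM to 0.33 by total counts. It was not taken under total counts without mitochondrial genes and globins, where Rdh10, the median gene by TMM, had 0.35. The scalings moved the median of all genes by at most 0.07. Of 18 alternative levels that use both pups 3 moved by more than the SD of the pups. Dhrs3 came to 173 TPM and Aldh1a2 to 43.8 TPM after rescaling without mitochondrial genes and globins, and Stra6 to 0.855 TPM by the posterior mean. The rescaling raised all 9 genes by a similar factor. Dhrs3 and Aldh1a2 passed the mark because their SDs were the smallest, 2.58% and 8.10% of the mean, so this shows no special dependence on processing. The log2 ratio of Dhrs3 was 0.05 by TPM with 0.1 or 1 added. Leading transcripts were the same in both pups for 6 genes, and for 8 by the posterior mean. Of the 6, Aldh1a1 and Aldh1a2 have a single annotated transcript and could not differ. The posterior mean added Crabp1, also with a single transcript, and Stra6, whose leading transcript by that estimate, Stra6-203, had 0 counts in both pups. The rise to 8 therefore says nothing about the reads. No paired analysis was possible because both samples belong to 1 group. Leaving out a pup leaves no ratio, and a level from 1 of 2 pups always lies within 1 SD of their mean, so it says nothing about stability. Depth limits Stra6, Crabp1 and the Cyp26 genes most.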
